A study of Mus musculus with 6 samples.

Results

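The Magea genes are an X-linked subfamily of the mouse melanoma antigen (MAGE) genes, and they were taken here as every row of the deposited table whose symbol is Magea followed by a number and whose mean normalized count is above 0. The rule gave 7 of 25239 genes: Magea2, Magea3, Magea4, Magea5, Magea6, Magea8 and Magea10. The table has 8 such symbols, and the other one, Magea1, was at 0 in all 6 libraries. RNA was sequenced from E14 cells, which are mouse embryonic stem cells, grown in N2B27 supplemented with LIF and 2i. Cells labelled EHMT2 knockdown received siRNA against EHMT2 and cells labelled WT received control siRNA, in each case 2 μl of a 40 μM stock, and both were collected 3 days later, with 3 libraries per group. Nothing in the labels says whether libraries came from separate cultures, so the p-values may measure technical spread only.

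MAGE proteins share a conserved domain that binds RING-type E3 ubiquitin ligases and steers them to substrates. The A subfamily is transcribed in germ cells of the testis and is silent in most adult tissues, where its promoters carry DNA methylation. Its human members are known as cancer-testis antigens because tumours often switch them on again. EHMT2, also called G9a, works as a dimer with EHMT1 and places mono- and dimethylation on lysine 9 of histone H3, a mark of silent chromatin, and loss of G9a is known from earlier work to release Mage-a genes in mouse embryonic stem cells.

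The Magea genes lie in 2 places on the X chromosome (GRCm38, RefSeq annotation), and all 7 are annotated as protein-coding. Magea4 (chrX:72221015-72222964, plus strand) and Magea10 (chrX:72381870-72386858, minus strand) are 2 single genes with other genes between them. Magea6, Magea3, Magea8, Magea2 and Magea5 follow each other on the minus strand within 139 kb (chrX:154923895-155063151). The 300 bases from 250 before to 50 after the RefSeq start site are shown for the 3 members whose start site lies within 21 bases of the 5′ end of the gene record, because DNA methylation of MAGE promoters acts on CG pairs. They are written 5′ to 3′ on the strand of the gene with each CG in capitals, from the RefSeq sequence of GRCm38.p6.
Magea8 (chrX:154995801-154996100, minus strand): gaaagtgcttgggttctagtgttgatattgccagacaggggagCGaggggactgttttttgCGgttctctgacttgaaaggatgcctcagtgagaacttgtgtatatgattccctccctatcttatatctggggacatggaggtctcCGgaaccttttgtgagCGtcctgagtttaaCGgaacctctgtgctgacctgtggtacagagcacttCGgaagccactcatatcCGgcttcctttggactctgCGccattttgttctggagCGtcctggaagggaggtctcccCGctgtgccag
Magea2 (chrX:155033243-155033542, minus strand): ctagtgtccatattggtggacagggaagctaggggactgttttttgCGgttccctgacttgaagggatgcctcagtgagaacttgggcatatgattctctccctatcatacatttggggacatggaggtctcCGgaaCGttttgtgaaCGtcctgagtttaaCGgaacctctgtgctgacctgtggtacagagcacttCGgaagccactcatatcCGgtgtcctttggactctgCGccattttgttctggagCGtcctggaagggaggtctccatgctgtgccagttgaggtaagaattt
Magea10 (chrX:72386809-72387108, minus strand): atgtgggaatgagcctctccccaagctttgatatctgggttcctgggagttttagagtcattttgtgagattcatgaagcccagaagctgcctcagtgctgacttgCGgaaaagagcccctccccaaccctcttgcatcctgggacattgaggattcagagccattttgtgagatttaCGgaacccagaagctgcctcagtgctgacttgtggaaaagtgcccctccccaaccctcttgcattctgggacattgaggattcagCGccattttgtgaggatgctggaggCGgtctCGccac

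The Magea8 window held 10 CG pairs, the Magea2 window 9 and the Magea10 window 5, against a median of 7 over 32851 mouse promoter windows of the same length. The first 2 are near copies, with 264 of 285 aligned bases identical (92.6%), while Magea10 shared 67.2% of aligned bases with Magea8. The start sites listed for the other 4 members lie 1002 bases (Magea4) to 9959 bases (Magea6) inside their gene records. Their windows may therefore not be the promoters in use, and they held 0 to 2 CG pairs. In another annotation, GENCODE M21, the Magea2 gene reaches chrX:155093666, 5′ of the window shown, so that window may not be its only promoter. Motifs were searched on both strands. The E-box CACGTG (found in 7.15% of all windows), the E2F sequence GCGGGA (20.0%), the GC box GGGCGG (35.7%) and CCGGAAG (8.86%), an ETS sequence, occurred in no member window. The shorter ETS core CCGGAA, which is part of CCGGAAG, was picked after the windows had been read and is in 14.9% of all windows. It occurred once each in the Magea8 and Magea2 windows, and its CG is among the capitals.

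All 7 Magea genes rose after EHMT2 siRNA and none fell. In the authors' deposited table their log2 fold changes, EHMT2 siRNA over control siRNA, ran from 2.43 to 6.45 with a median of 5.24, while the median over all 20461 genes with a p-value was 0.01. A gene was called when its deposited p, adjusted by the Benjamini-Hochberg method over all these genes, was below 0.05, which 5.45% of genes did as higher and 4.82% as lower. Among the 4710 genes whose mean lay between those of Magea6 and Magea4, 9.68% were called higher and 9.45% lower. The siRNA target itself, Ehmt2, had 34.7% of its control level (95% interval 29.4% to 41.0%). No label names the numerator of the ratio, and the direction was read from this fall, so Ehmt2 gives no separate check of the labels.

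The table lists no values per library, but its means carry 15 digits, and the whole reads behind each Magea mean could be worked out from them. Genes with a single read give the 6 size factors by which DESeq2 divides the reads of each library, 1.25, 0.952 and 0.952 on the EHMT2 siRNA side (libraries A, B and C here) and 1.05, 1.01 and 0.845 on the control side (D, E and F). Which of these is which numbered replicate is not known. For each member exactly 1 of the sets of 6 whole numbers searched gave both the deposited mean and the deposited fold change, the latter to within 5.44e-06 on the log2 scale. Reads divided by these factors are called normalized reads below.

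Magea4 was the one member with clear expression in control cells. It had 1285, 1009 and 1061 normalized reads in EHMT2 siRNA libraries A, B and C, against 208, 182 and 236 in control libraries D, E and F. Every EHMT2 siRNA library lay far above every control library. In the authors' deposited table its fold change was 2.43 on the log2 scale (95% interval 2.13 to 2.72, Benjamini-Hochberg adjusted p 2.68e-55 from the authors' DESeq2 comparison), the smallest of the 7.

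Magea8 and Magea5 were near silent in control cells and far higher after the knockdown. Magea8 had 539, 443 and 424 normalized reads in EHMT2 siRNA libraries A, B and C, against 10.5, 16.9 and 9.47 in control libraries D, E and F. The authors' deposited table gave a log2 fold change of 5.24 (4.66 to 5.82, adjusted p 8.65e-67 from the DESeq2 comparison). Its control libraries held 11, 17 and 8 reads, so the gene was detected in each of them. Magea5 had 438, 261 and 302 normalized reads in EHMT2 siRNA libraries A, B and C, against 19.1, 20.9 and 16.6 in control libraries D, E and F. The authors' deposited table gave a log2 fold change of 4.14 (3.54 to 4.75, adjusted p 2.99e-38 from the DESeq2 comparison). For both genes the groups were far apart, and library A was the highest.

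Magea2 showed the largest fold change of the family, set against very few control reads. It had 176, 96 and 115 reads in EHMT2 siRNA libraries A, B and C (141, 101 and 121 normalized), against 0, 2 and 2 reads in control libraries D, E and F. The authors' deposited table listed a log2 fold change of 6.45 (4.94 to 7.96, adjusted p 1.70e-14 from the DESeq2 comparison). The ratio of reads per size factor was 88.9, with a 95% exact interval of 34.4 to 328 that covers counting error only. Without control library D, which held 0 reads, the log2 fold change was 5.81. No control library came near an EHMT2 siRNA library.

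Magea3 and Magea10 were likewise at the edge of detection in control cells. Magea3 had 72, 57 and 71 reads in EHMT2 siRNA libraries A, B and C (57.7, 59.9 and 74.6 normalized), against 0, 0 and 3 reads in control libraries D, E and F. With 3 control reads in all, the ratio of reads per size factor was 61.3, with a counting interval of 20.7 to 299.5, and the authors' deposited table put the log2 fold change at 5.93 (4.16 to 7.71, adjusted p 6.59e-09 from the DESeq2 comparison). Without control library D or E, which held 0 reads, it was 5.29 or 5.31. Magea10, the most diverged member in sequence, had 135, 60 and 68 reads in EHMT2 siRNA libraries A, B and C (108, 63.0 and 71.4 normalized), against 1, 3 and 2 reads in control libraries D, E and F. The authors' deposited table gave a log2 fold change of 5.29 (3.93 to 6.65, adjusted p 3.85e-12 from the DESeq2 comparison). The groups did not overlap for either gene.

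Magea6 had the lowest mean of the 7 and uneven control libraries. It had 65, 33 and 54 reads in EHMT2 siRNA libraries A, B and C (52.1, 34.7 and 56.7 normalized), against 8, 2 and 0 reads in control libraries D, E and F. The authors' deposited table listed a log2 fold change of 3.83 (2.46 to 5.20, adjusted p 2.43e-06 from the DESeq2 comparison). Control library D held 8 of its 10 control reads, and without that library the fold change was 5.49. A control library with 0 reads allows up to 3 reads, which is 2.87 to 3.55 normalized reads depending on the library. For Magea1 the limit is 2.40 to 3.55 normalized reads over the 6 libraries.

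**Figure D1:**
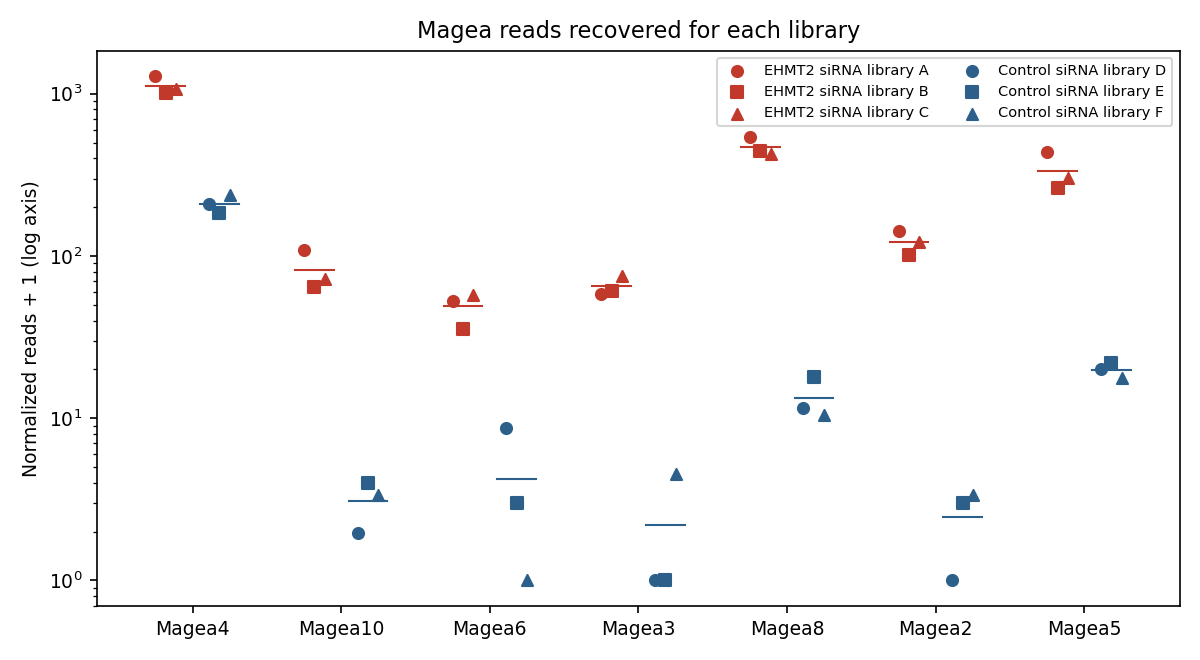
Normalized reads plus 1 (log axis) of each Magea gene in the 3 EHMT2 siRNA libraries (red, left of each pair) and the 3 control siRNA libraries (blue, right), with a line at each group's mean. For all 7 genes every EHMT2 siRNA library lay above every control library, and Magea4 was the only gene above 100 normalized reads in control cells.

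In all 7 genes the lowest EHMT2 siRNA library was above the highest control library. The table's share of genes called higher, 5.45%, counts calls and not such separation, which was not counted over all genes. Reads were recovered for 31 of 39 other genes tried, picked from the neighbours, MAGE genes and markers, and 20 of the 31 showed the same separation, Gabre (described below) among them, which was not called. The order of the fold changes was Magea2, Magea3, Magea10, Magea8, Magea5, Magea6 and Magea4, from largest to smallest. The intervals of neighbours in that order overlapped, so most of the order is not resolved. The interval of Magea4 ended at 2.72, below the start of the intervals of Magea2, Magea3, Magea10, Magea8 and Magea5, and overlapped only that of Magea6.

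**Figure D2:**
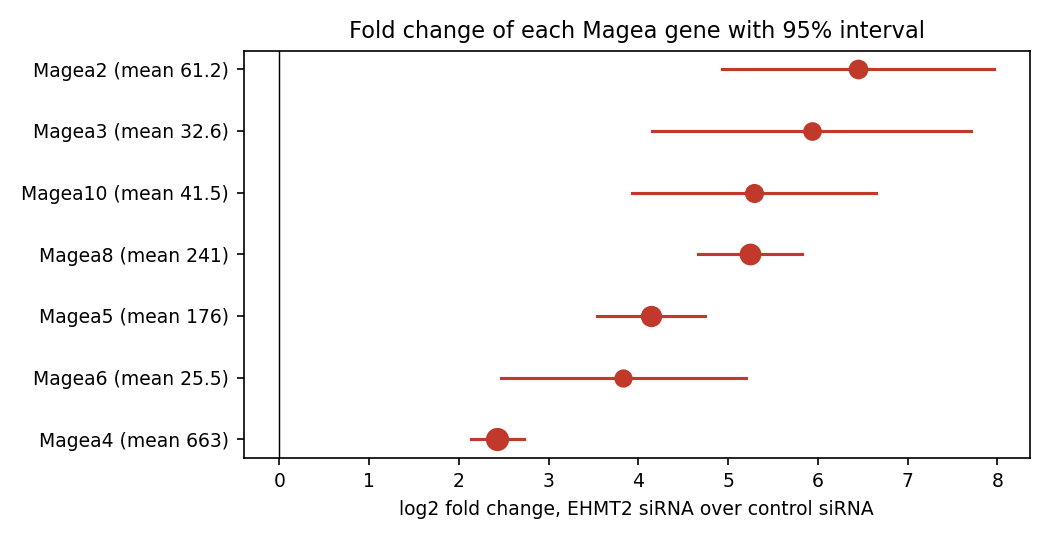
Log2 fold change, EHMT2 siRNA over control siRNA, of each Magea gene (points, larger with a higher mean) with the 95% interval implied by the deposited fold change and p-value. The intervals of the 7 genes lie above 0, from 2.13 at the low end of Magea4 to 7.96 at the high end of Magea2.

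Summed over the family, Magea reads were 9.02-fold higher after the knockdown. The sum was 2621, 1972 and 2111 normalized reads in EHMT2 siRNA libraries A, B and C, against 246, 227 and 270 in control libraries D, E and F (2234 ± 342 and 248 ± 21.6, SD, n = 3 each). The 5 genes of the distal group together had 1228, 900 and 978 normalized reads in EHMT2 siRNA libraries, against 37.3, 41.8 and 32.0 in control libraries, a ratio of 28.0. The make-up of the family's reads also differed between the groups. Magea4 held 49.0% to 51.2% of Magea reads in the EHMT2 siRNA libraries and 80.3% to 87.3% in the control libraries. Magea8 held 20.1% to 22.5% in EHMT2 siRNA libraries, against 3.51% to 7.46% in control libraries, and Magea5 13.3% to 16.7% against 6.14% to 9.21%. In bulk RNA a change in the number of cells that transcribe a gene and a change in the RNA of each cell cannot be told apart.

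Per kilobase of the longest GENCODE M21 transcript, Magea4 was also the most abundant member, at 1180 normalized counts in EHMT2 siRNA cells and 220 in control cells. Magea8 followed with 285 and 7.53, and Magea5 with 213 and 12.1. Magea2, Magea3, Magea10 and Magea6 lay between 39.3 and 71.8 in EHMT2 siRNA cells and between 0.82 and 2.76 in control cells. These are group levels implied by the deposited mean and fold change. The transcript models behind the authors' counts were not used here, and those of Magea4 (948 bases) and Magea3 (963 bases) in GENCODE are shorter than the rest, which raises their values per kilobase.

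Reads can be shared between the copies of the distal group. The longest transcripts of Magea6, Magea3, Magea8, Magea2 and Magea5 were 94.7% to 97.8% identical over aligned bases. Magea4 was 82.9% to 84.6% identical to these 5, and Magea10 66.8% to 69.9% to the other 6. Of all windows of 150 bases, the length of 1 read of a pair, 38.7% of Magea2, 16.0% of Magea5, 9.22% of Magea8, 5.77% of Magea3 and 3.10% of Magea6 were also found exactly in another gene's transcript. The Magea4 and Magea10 transcripts shared none. Levels of single genes in the distal group are less certain, Magea2 most of all.

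Magea1, which lies beyond Magea5 on the same strand, had 0 reads in every library although its transcript was 99.2% identical to that of Magea2 over aligned bases. Of its windows of 150 bases, 51.8% were found in Magea2, Magea5 or Magea8. GENCODE M21 places the Magea1 and Magea5 loci inside the span of a longer Magea2 gene on the same strand. Which annotation the authors counted over is not known here.

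**Figure D3:**
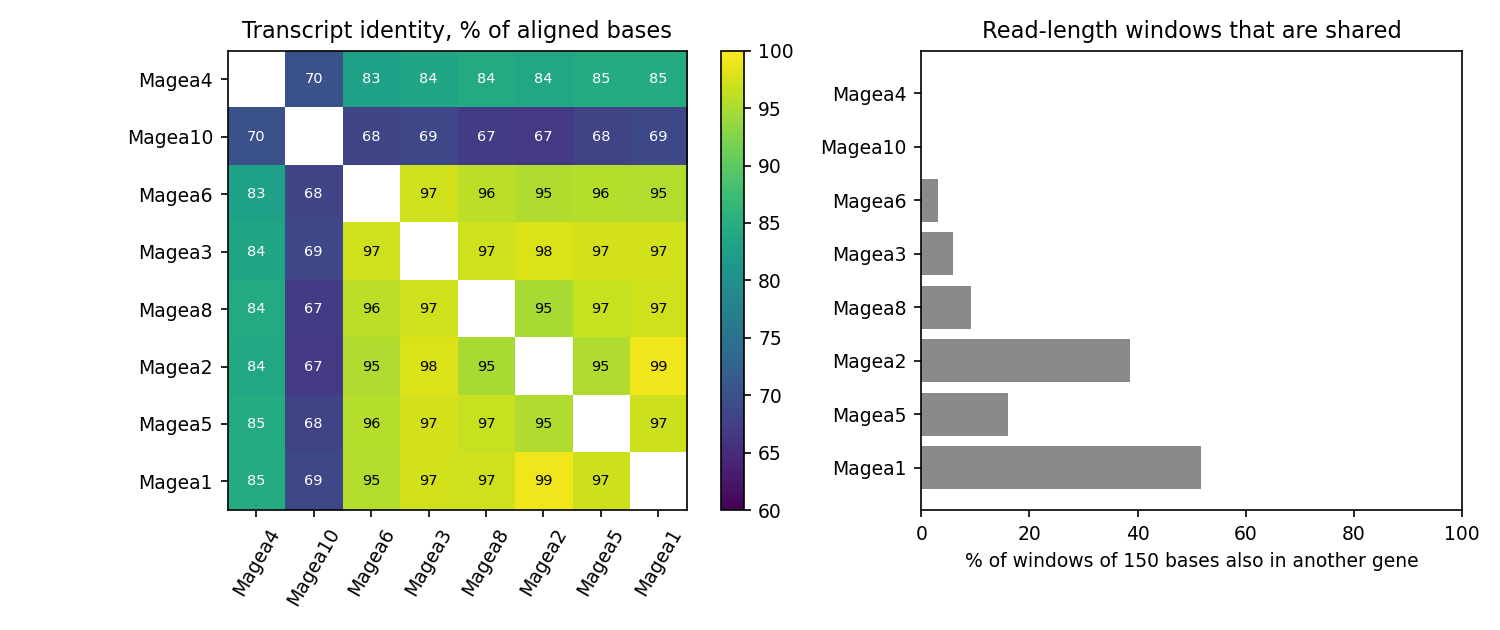
Left, identity of the longest GENCODE M21 transcripts of each pair of Magea genes in percent of aligned bases; right, percent of the windows of 150 bases of each transcript that also occur in a transcript of another gene. The 5 distal genes and Magea1 form a block of near copies, and Magea4 and Magea10 share no window.

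Most genes around the Magea genes changed far less. Within 1 Mb of a Magea gene, 37 other genes were tested, of which 11 were called higher, 0 lower and 26 not called, with a median log2 fold change of 0.22. Over all X-linked genes other than Magea, 12.6% were called higher and 0.885% lower. Over all tested genes the shares were 5.45% and 4.82%. The 11 of 37 is a larger share of higher calls than either. Among the 11 were Xlr3b, Xlr3c, Xlr4a, Xlr4b and Xlr4c, which start 853 to 1034 kb from the start of Magea4.

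The X chromosome as a whole had more genes higher than lower after EHMT2 siRNA. Outside the Mage, Xlr and Rhox families, 748 X-linked genes were tested, of which 83 were called higher (11.1%) and 7 lower (0.936%), with a median log2 fold change of 0.11. On the other chromosomes 1009 of 19626 genes were called higher (5.14%) and 979 lower (4.99%), with a median of 0.00. Of 34 genes of the Xlr and Rhox families, X-linked genes known for expression in germ cells and reproductive tissue, 13 were called higher and 0 lower, with a median of 1.01. The Magea genes stand on this chromosome, and the part of any change over the whole X in their rise was not tested.

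Between Magea4 and Magea10 lies Gabre, which encodes a GABA-A receptor subunit. Gabre had 96, 94 and 90 reads in EHMT2 siRNA libraries A, B and C, against 60, 67 and 64 reads in control libraries D, E and F. The authors' deposited table gave a log2 fold change of 0.44 (adjusted p 0.338 from the DESeq2 comparison), which did not pass. Mir224, a microRNA gene in the same interval, had a mean of 0.49 normalized counts and did not pass. On the outer side of Magea4 the nearest tested gene, Fate1, had a mean of 0.197 and did not pass. The next tested gene beyond Magea10 is Gabra3, another subunit of this receptor. Gabra3 had 28, 20 and 24 reads in EHMT2 siRNA libraries, against 2, 4 and 3 reads in control libraries, and rose by a log2 fold change of 2.87 in the authors' deposited table (1.54 to 4.21, adjusted p 6.67e-04 from the DESeq2 comparison). Its groups did not overlap, and its interval overlapped that of Magea10. Farther out, Hmgb3, which encodes a chromatin protein, rose by 0.55 on the log2 scale in the authors' deposited table, and Xlr4c and Xlr3b of the Xlr family by 1.004 and 0.46.

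Around the distal group, no other tested gene lay inside the span of the 5 members. On the side of Magea6 the nearest tested gene, Cldn34b1, had a mean of 2.53 normalized counts and did not pass (log2 fold change 3.65, adjusted p 0.193 from the DESeq2 comparison of the authors' deposited table). On the side of Magea5 the next tested gene was Sat1, which encodes an enzyme of polyamine breakdown. Sat1 starts 289 kb from the start of the group, which is at Magea6. It is nearer to Magea5, whose record ends at chrX:155063151, while Sat1 starts at chrX:155213126. Sat1 rose by 0.55 on the log2 scale in the authors' deposited table (adjusted p 2.59e-10 from the DESeq2 comparison). That is far below the 3.83 to 6.45 of the 5 Magea genes beside it, and its interval (0.40 to 0.70) does not overlap theirs.

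**Figure D4:**
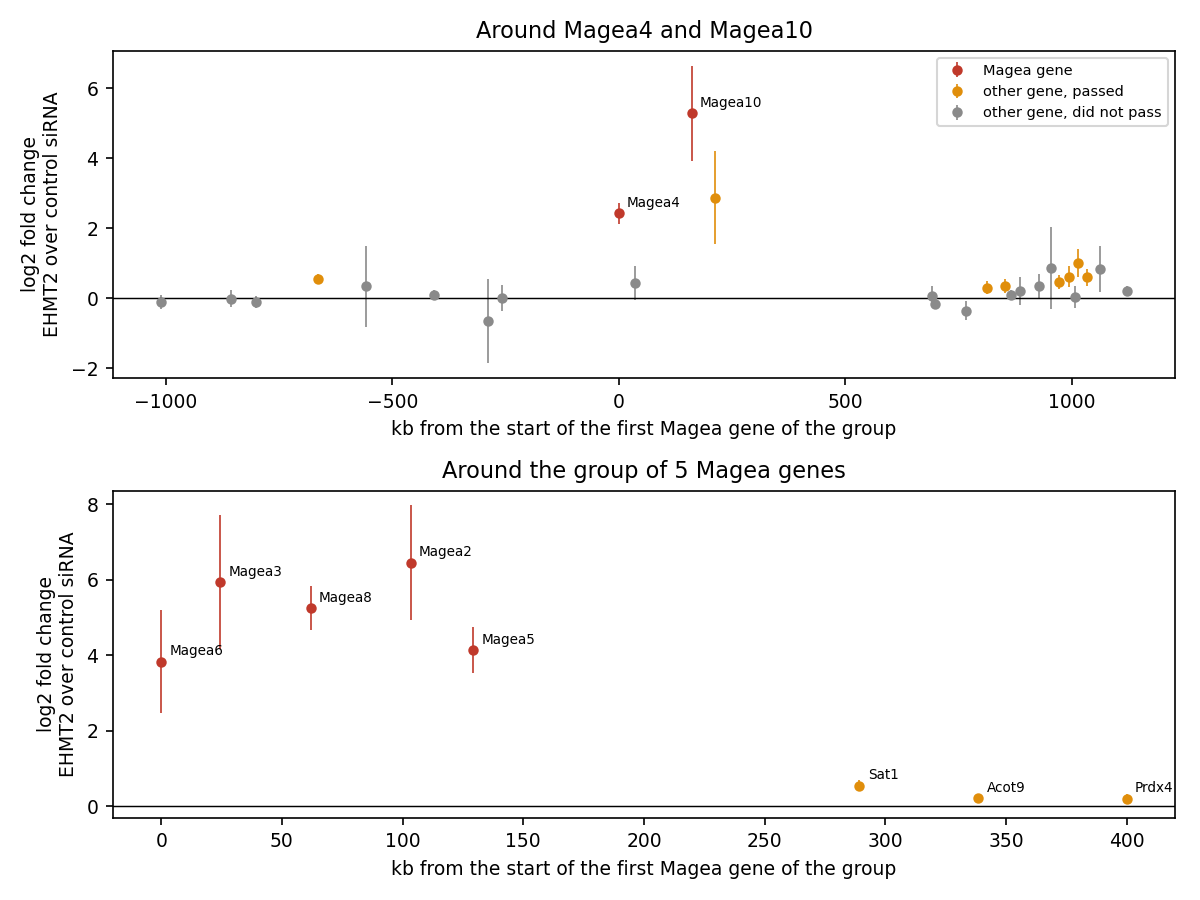
Log2 fold change with 95% interval of genes with a mean of at least 10 within 1 Mb of a Magea gene, against the distance in kb from the start of Magea4 (top) or Magea6 (bottom). The Magea genes (red) stand at 2.43 to 6.45, and of the other genes only Gabra3 (2.87, orange, beside Magea10) exceeds 2.

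The other MAGE genes had smaller estimated fold changes than any Magea gene, from -0.25 (Magee2) to 1.48 (Mageb18, which did not pass) on the log2 scale. For 3 genes with few reads the intervals overlapped that of Magea4, so a smaller change is not resolved. They are Mageb18 (-0.39 to 3.36), Mageb16-ps1 (-4.89 to 5.37) and Magel2 (-2.10 to 2.16). The list held 14 tested genes: Mageb, Maged, Magee, Mageh and Magel genes, Ndn, Nsmce3 and the MAGE partner Trim28. Of these, 5 rose and 0 fell, against 5.45% of all tested genes called higher and 4.82% lower. Their median log2 fold change was 0.15. Most of the 14 are X-linked, and of X-linked genes other than Magea 12.6% were called higher and 0.885% lower. Maged1, which takes part in neurotrophin receptor signalling, rose by 0.29 on the log2 scale in the authors' deposited table. Ndn, an imprinted gene that encodes necdin, rose by 0.63, Mageb16 by 0.46 and Maged2 by 0.24. Mageb4, named after its value was seen, had 58, 51 and 52 reads in EHMT2 siRNA libraries, against 24, 27 and 12 reads in control libraries, and rose by 1.26 (adjusted p 0.00955 from the DESeq2 comparison). Mageb1, Mageb2 and Mageb5 were at 0 in all libraries.

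A list of 36 genes holds enzymes and subunits of H3K9 methylation, DNA methylation and the PRC1.6 complex, which are known to act on germline genes, with the demethylases Tet1 and Tet2 and the germ cell factor Ctcfl. Of these, 1 rose and 2 fell, Ehmt2 itself among the 2, against 5.45% of all tested genes called higher and 4.82% lower. Their median was -0.02 on the log2 scale. Besides Ehmt2, Tet2 fell by 0.21 on the log2 scale, and Hdac2, a histone deacetylase, rose by 0.32 in the authors' deposited table. E2f6, a DNA-binding subunit of PRC1.6, stood at -0.17 (adjusted p 0.0909 from the DESeq2 comparison) and did not pass. Ehmt1, the partner of Ehmt2 and named for that role, stood at -0.05 with an interval of -0.22 to 0.11.

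Markers of other cell states were read beside the Magea genes. All 8 embryonic stem cell markers were expressed, from 12382 normalized counts for Tbx3 to 86255 for Tfcp2l1 on average over the libraries, and none of them passed (adjusted p 0.141 to 0.951 from the DESeq2 comparison). Of all tested genes 5.45% were called higher and 4.82% lower. Of 8 germ cell markers 2 rose, Prdm1 (0.56) and Nanos3 (0.92), and 0 fell. Their summed level was 17938 normalized counts in EHMT2 siRNA cells and 11256 in control cells. The largest part came from Dazl, whose change of 0.67 did not pass (adjusted p 0.319 from the DESeq2 comparison). Dppa3 (1.10), Mael (0.27), Sycp3 (0.24), Ddx4 (0.21) and Stra8 (-0.16) did not pass either. Of 6 tested fibroblast markers Col1a2 rose (2.43), and the other markers did not pass. Thy1 (-1.01), Col1a1 (-0.39) and Pdgfrb (-0.33) stood below 0. Lum (2.03) and Col3a1 (1.65) stood above it, at means of 1.93 and 0.74. Fibroblast markers summed to 670 and 660.3 normalized counts in EHMT2 siRNA and control cells, with Dcn at 0. Of 6 trophoblast markers Cdx2 rose (1.31), with sums of 5382 and 4361 in EHMT2 siRNA and control cells. The other trophoblast markers did not pass. Hand1 (-4.24, mean 1.66), Eomes (-0.47) and Gata3 (-0.35) stood below 0, and Elf5 (0.96) and Tfap2c (0.29) above it. Of 5 Sertoli cell markers Gata4 fell by 1.002 on the log2 scale, with sums of 151 and 286 in EHMT2 siRNA and control cells. Sox9 (-1.89), Dhh (-1.17), Wt1 (-0.70) and Amh (0.50) did not pass. The part of germ cell, fibroblast, trophoblast or Sertoli-like cells in the Magea rise was not tested.

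Markers of the 2-cell-like state, which a small share of stem cells enters at any time, rose as well. All 8 with reads were called higher, against 5.45% of all tested genes. Their log2 fold changes ran from 2.01 (Zfp352) to 3.36 (Usp17le) in the authors' deposited table. Zscan4c, Zscan4d and Zscan4f, Tcstv1 and Tcstv3, and Usp17lc and Usp17le are related genes, so these are not 8 separate markers. Gm4340 was at 0. The 8 summed to 430, 926 and 855 normalized reads in EHMT2 siRNA libraries A, B and C, against 148, 131 and 56.8 in control libraries D, E and F. Library A, the highest of the 3 EHMT2 siRNA libraries for the Magea sum, was the lowest of them for these markers. Library A held 1.24 times the mean Magea4 level of libraries B and C, and 1.24 times that of Magea8, 1.56 times that of Magea5 and 1.61 times that of Magea10. Magea3 was an exception at 0.86 times. Among the controls, library F had the highest Magea sum and the lowest sum of 2-cell-like markers. The part of 2-cell-like cells in the Magea rise was not tested.

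**Figure D5:**
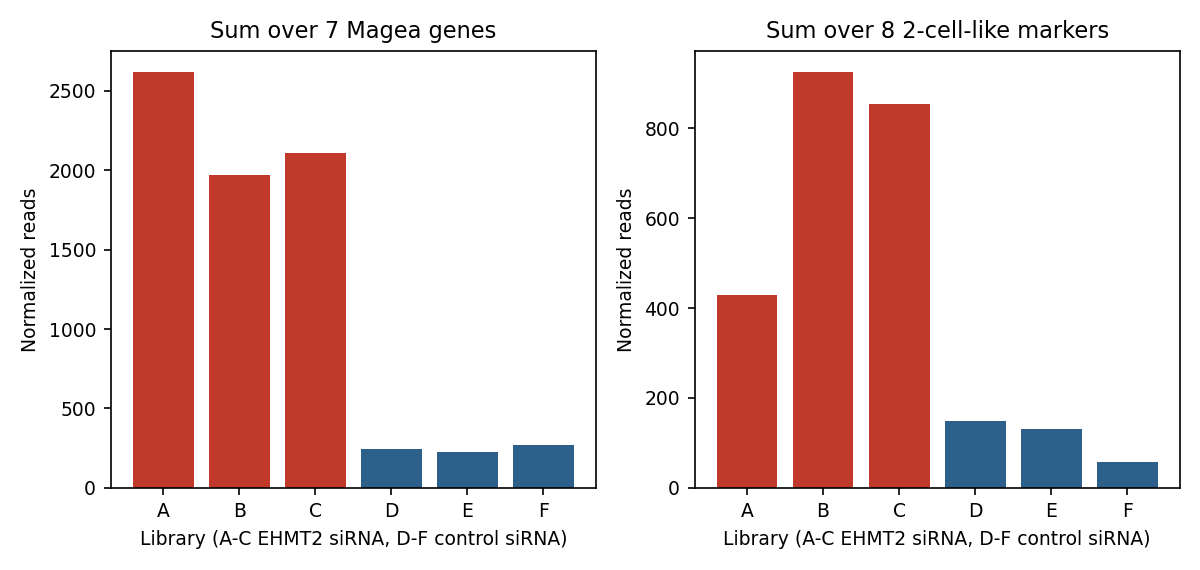
Normalized reads summed over the 7 Magea genes (left) and over 8 markers of the 2-cell-like state (right) in EHMT2 siRNA libraries A to C (red) and control siRNA libraries D to F (blue). Both sums are higher in every EHMT2 siRNA library, and library A is the highest of its group on the left (2621) and the lowest on the right (430).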

How the data were processed

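Poly(A) RNA of 6 libraries (3 EHMT2 siRNA, 3 control siRNA) was sequenced in pairs from a stranded kit, per the labels' protocols. Trimmomatic 0.36, FastQC, STAR and DESeq2, run by the authors, and the mm10 build are named in the submitters' processing notes. The counter, its strand setting and the annotation are not known here. The deposited table holds, per the file headers, for each gene a mean normalized count, which is a signal averaged over the libraries, its p-value and the log2 fold change, all made by the authors, with no values per library and no adjusted p.

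P-values were adjusted by the Benjamini-Hochberg method over 20461 genes with one, and 4778 genes at 0 were left out. Intervals of 95% were taken from the fold change and p under a Wald test. Direction was read from the fall of Ehmt2. Size factors came from genes with a single read, and whole reads from the digits of the mean. For the 4 members with the lowest means every split between the groups was searched; for Magea4, Magea5 and Magea8 only splits near the deposited fold change. For Magea4, 7 sets gave the mean and 1 of them the fold change within 0.0001. Total depth per library is unknown. Intervals on reads and floors of 3 reads cover counting error only.

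Named genes were every member, Ehmt2, tested genes inside a group of members and the nearest on each side, and up to 4 per list with the smallest p and a mean of at least 10; any marker could be named. The members and lists were chosen with earlier results of these data known. Python 3.11.15, SciPy 1.17.1, pandas 2.3.3 and Biopython 1.88 were used.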

Additional observations from a re-analysis of the deposited data

How the results depend on the processing

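All 7 genes were called higher, and none lower, with a mean of at least 10, an adjusted p below 0.01, Bonferroni adjustment, a log2 fold change of at least 1, fold changes centred on the median gene, and each library left out in turn (7 to 7). With a mean of at least 50, 4 members were left to test and 4 were called. Both filters use the mean over the 2 groups. Magea2, Magea3, Magea6 and Magea10 had control levels of 1.38, 1.05, 3.35 and 2.07, so they passed 10 only through the EHMT2 siRNA group. The same held at 50 for Magea2, Magea5 and Magea8, with control levels of 1.38, 18.9 and 12.4. The mean filters therefore give no support of their own to the calls. Without genes that have a copy of 95% transcript identity, 2 were left, Magea4 and Magea10, and 2 were called. The log2 ratio of the summed level, 3.18, was 4.83 without Magea4, and 3.04 to 3.26 from recovered reads with each library left out, an alternative chosen after seeing the data. With each library left out, Magea6 ranged from 3.30 to 5.49 (largest adjusted p 2.49e-04 from the Wald refits) and Magea2 from 5.81 to 6.96. Magea3 ranged from 5.29 to 6.00 on the log2 scale where control reads were left. Without library F it had no control reads and was at least 5.45, from a floor of 3 reads over the group. Its call without library F rests on this floor too, and no upper end is known. With 1 added to both group levels, Magea3 was 4.99 and Magea2 5.68. The refits of single genes took the dispersion implied by the deposited p, a way of fitting chosen after seeing the data. With a library left out, only the 7 members were refitted. The adjustment kept the deposited p of every other gene, and the size factors were those of all 6 libraries. Few control reads limit the size of the change for Magea2, Magea3, Magea6 and Magea10. No paired analysis was possible because the libraries recovered from the table carry no replicate numbers.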
